A study of Homo sapiens with 6 samples.

Results

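The integrated stress response was followed here through 10 of its genes: the transcription factors ATF4, ATF5, CEBPB, CEBPG and DDIT3, the feedback and effector genes TRIB3, CHAC1 and PPP1R15A, and the growth brakes DDIT4 and SESN2. They were picked by name as factors and targets of this pathway, with earlier results of these data known. All 10 were found by symbol among the 23686 genes of the files. HEK293 cells are a widely used line derived from human embryonic kidney. In the co-culture group (3 libraries), HEK293 cells carrying green fluorescent protein (GFP) shared the dish for 10 h with DAAO-carrying HEK293 cells that produce reactive oxygen species, in 25 µM D-alanine, and were then sorted for GFP. D-amino acid oxidase, for which DAAO commonly stands, releases hydrogen peroxide when it oxidises D-alanine. The control group (3 libraries), labelled Wt controls, held GFP-positive HEK293 cells that were sorted as well. One treatment text covers both groups, so the labels do not say whether the controls received D-alanine or had partner cells. The labels do not say whether libraries of a group came from separate cultures, so p-values measure only the spread between these libraries, which may be technical.

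In the integrated stress response, protein kinases that sense different kinds of stress phosphorylate the translation factor eIF2. General protein synthesis then slows, while a few mRNAs with upstream reading frames, among them those of ATF4, ATF5, DDIT3 and PPP1R15A, are translated better. ATF4 is a basic leucine zipper factor that pairs with C/EBP proteins and switches on genes for amino acid supply, for feedback and, through DDIT3 (also called CHOP), for cell death. The RNA measured here reports transcript levels and not translation or phosphorylation.

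Reads assigned to genes on the expected (reverse) strand numbered 19091085 to 36250314 per library, and levels are given in CPM, the usual counts-per-million unit, here with library totals scaled against each other. The HEK293 markers NEFM, NEFL, PAX2, LIN28B and VIM were present in all libraries, with a summed level of 1674 to 1740 CPM in co-culture, against 1325 to 1405 CPM in controls, VIM, which encodes the filament protein vimentin, making up most of it and being higher in co-culture (log2 fold change 0.40, edgeR adjusted p 0.00793; 0.38 and 0.198 with the batch term described next). Markers of blood, liver, vessel, epithelium, connective tissue and glia summed to 0.726 to 1.05 CPM in co-culture, against 0.730 to 1.06 CPM in controls, GFAP being the highest of them in each library (0.615 to 1.00 CPM) and CD3E at 0. The partner cells are also HEK293, so these markers cannot tell them from the sampled cells. DAO, the human gene of the enzyme, had 0 reads, which allows up to 0.156 CPM in the shallowest library (3 reads, counting error only). Whether the DAAO of the partner cells is the human gene is not given in the sources used here. The DAO reads therefore set no limit on partner cells among the sampled cells. Co-culture libraries 2 and 3 stood apart in a technical measure: the median share of opposite-strand reads per gene was 0.124% and 0.211% there, against 1.57% to 1.75% in the other 4 libraries. That median was taken over the 4907 genes with at least 1000 reverse-strand reads in every library. A fit in which this strand class enters as a batch term is given beside the members and genes whose call it changes, and beside DDIT3 and ATF4. That fit compares the groups through co-culture library 1 alone, the sole co-culture library in the class of the controls. In bulk RNA, fewer cells with a transcript and less of it per cell cannot be told apart.

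DDIT3, the pro-apoptotic C/EBP-family factor of the pathway, was lower in co-culture by 1.97-fold, and ATF5, a close relative of ATF4, was lower by 1.53-fold. ATF4 itself and the other 7 genes did not pass the test. In edgeR's quasi-likelihood test over 14582 genes with Benjamini-Hochberg adjustment at 0.05, 2 of the 10 genes were called, both lower, against 4.83% of all tested genes called in either direction (2.17% lower and 2.66% higher). Over all genes 704 were called, 55.1% of them higher, and with scaling by library totals 882 were called, 35.1% of them higher. The median log2 fold change was -0.10 over the 10 genes and -0.0022 over all tested genes. The log2 fold change was below 0 for 8 of the 10 genes, beside 50.4% of all genes tested. An unadjusted p under 0.05 was reached by 3 of the 10 genes, against 23.2% of all genes. Because the 10 genes were chosen with earlier results of these data known, these shares describe the genes and do not test them as a set.

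**Figure D1:**
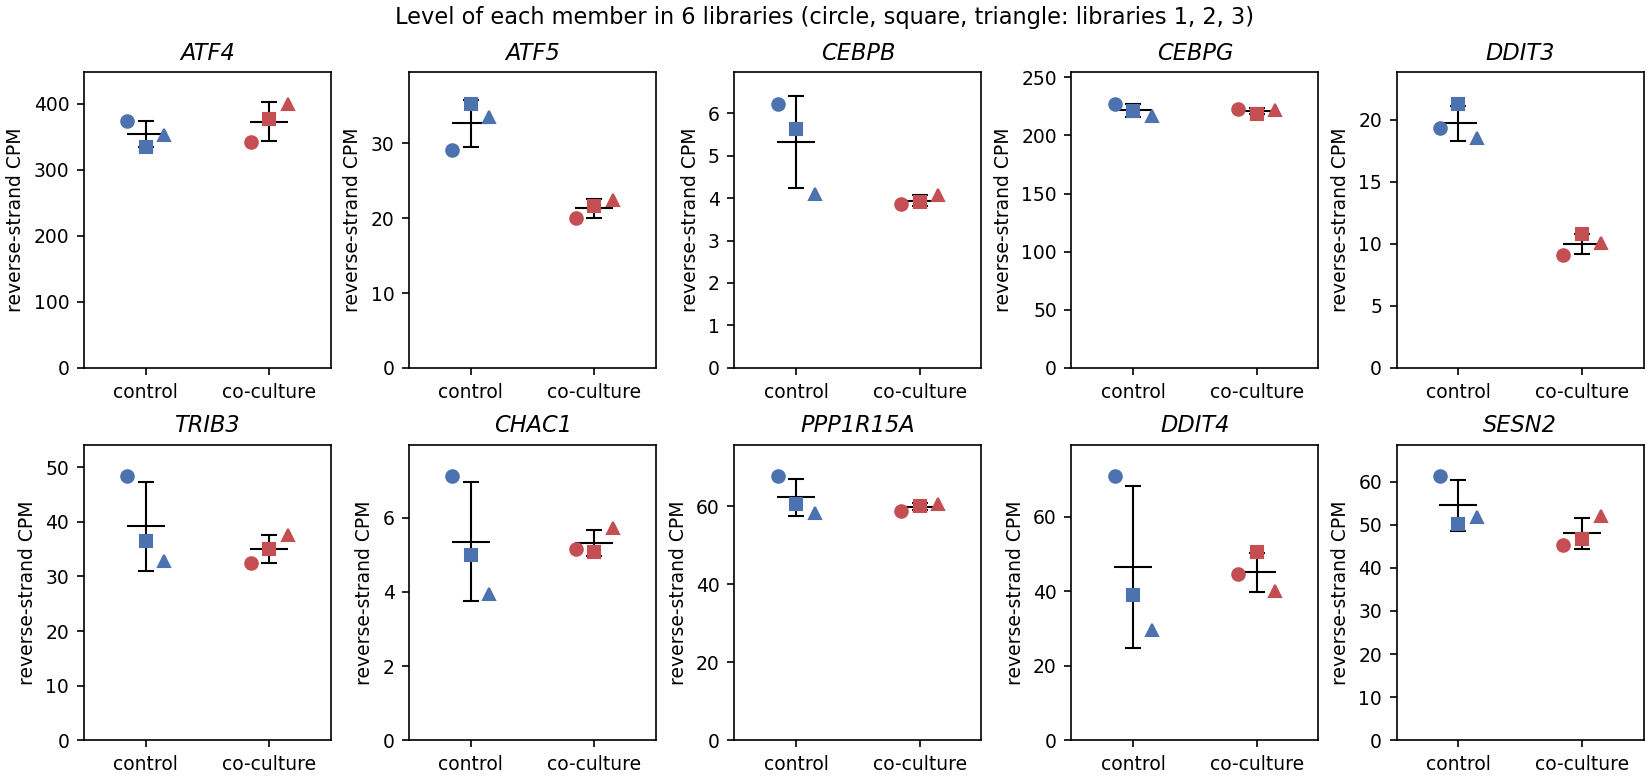
Reverse-strand CPM (y axis, linear, from 0) of each of the 10 genes in the 3 control and 3 co-culture libraries; symbols mark libraries 1, 2 and 3, and bars show mean and SD (n = 3). DDIT3 and ATF5 are lower in every co-culture library than in any control, and DDIT4 spreads from 29.5 to 70.9 CPM within the controls.

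DDIT3 stood at 9.11, 10.8 and 10.1 CPM in co-culture libraries 1, 2 and 3, and at 19.4, 21.3 and 18.5 CPM in controls 1, 2 and 3. The groups were well apart, since the highest co-culture value was below the lowest control. The underlying reads were 182, 227 and 361 in co-culture and 383, 408 and 483 in the controls. The means were 9.99 ± 0.843 and 19.7 ± 1.41 CPM (SD, n = 3 each), or -0.98 on the log2 scale (95% interval -1.20 to -0.75, SE 0.10; edgeR adjusted p 0.00105). With the strand-class batch term the value was -1.11 (SE 0.16, edgeR adjusted p 0.0356), in a fit that called 0.199% of all genes. Leaving out any 1 library kept DDIT3 past the threshold, with values from -1.03 to -0.92 on the log2 scale.

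A promoter window of DDIT3, from 250 bases before to 50 bases after the start site, is printed because this gene carries the largest change of the group. It comes from RefSeq for GRCh38.p14, chr12:57520465-57520764, minus strand. The submitters' processing notes name hg18, so this location is not in the coordinates of the counts. Shorter stretches of 60 bases are given for 3 members whose windows hold a motif, with the motif in capitals.
DDIT3: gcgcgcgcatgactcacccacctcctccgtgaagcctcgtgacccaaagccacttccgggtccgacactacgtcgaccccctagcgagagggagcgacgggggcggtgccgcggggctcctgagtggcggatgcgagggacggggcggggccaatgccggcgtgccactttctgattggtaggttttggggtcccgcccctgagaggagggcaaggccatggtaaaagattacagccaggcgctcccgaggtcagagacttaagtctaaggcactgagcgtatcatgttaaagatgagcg
CHAC1: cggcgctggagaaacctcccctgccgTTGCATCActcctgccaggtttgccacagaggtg
CEBPG: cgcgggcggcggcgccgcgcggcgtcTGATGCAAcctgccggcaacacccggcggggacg
PPP1R15A: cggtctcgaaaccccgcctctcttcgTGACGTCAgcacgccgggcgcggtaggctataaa
The stretches lie on the plus strand of GRCh38.p14 at chr15:40953236-40953295 (CHAC1), chr19:33374045-33374104 (CEBPG) and chr19:48872337-48872396 (PPP1R15A).

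The core of the composite C/EBP-ATF element that ATF4 dimers bind, searched as TGATGNAA on both strands, was found in 2 of the 18 promoter windows that the table holds for the 10 members, 1 of CEBPG and 1 of CHAC1, and in 3.62% of all 35114 windows of the table. In CEBPG it lay from position -42 to -35 relative to a start site, and in CHAC1, on the opposite strand, from position -209 to -202. A cAMP response element, TGACGTCA (its own reverse complement), was found in 1 of the 18 windows, that of PPP1R15A, from position -58 to -51, and in 1.85% of all windows. The ER stress element, searched under its consensus on both strands, was in 0 of the 18 windows and 0.0769% of all. These motifs share no bases with each other in the members' windows. The 3 members with a motif did not pass the test, and the windows of DDIT3 and ATF5 held no exact match to these letter strings. The search did not cover near matches within the windows or sites outside the 300 bases. In the printed DDIT3 window, a stretch differs from the ER stress consensus only in its last base. The absence of exact matches therefore does not show that this promoter lacks an ER stress element.

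In every library, the median forward-strand share was 1.75% or less over the 4907 genes with at least 1000 reverse-strand reads in all 6. DDIT3 had fewer reads than that. Of all reads over DDIT3, 29.2% lay on the opposite (forward) strand. These amounted to 7.01, 5.32 and 5.67 CPM in co-culture libraries 1, 2 and 3 and to 6.77, 6.42 and 4.95 CPM in the controls. The groups overlapped fully. Mean forward-strand levels were 5.999 ± 0.889 CPM in co-culture, against 6.05 ± 0.967 CPM in controls (SD, n = 3 each; exact two-sided permutation test p = 1, where 3 against 3 cannot go below 0.1). Put through the edgeR fit in place of the reverse-strand reads, the forward-strand reads of DDIT3 gave -0.0086 ± 0.17 (SE) on the log2 scale, with an adjusted p of 0.983 in edgeR. With fewer reverse-strand reads in co-culture, the forward share of reads over DDIT3 averaged 37.5% there and 23.4% in the controls.

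Most of these opposite-strand reads can be traced from the 3 count columns. MARS1, listed as MARS, encodes the methionyl-tRNA synthetase and runs tail to tail into DDIT3 on the opposite strand in the RefSeq annotation of GRCh38.p14. Counting without regard to strand drops reads that touch 2 genes. DDIT3 lost 131, 118, 199, 152, 147 and 134 reads that way (co-culture 1 to 3, then controls 1 to 3), and MARS1 lost exactly the same number in each of the 6 libraries, 881 in all. No other gene matched DDIT3 within 2 reads in every library. Since MARS1 had 261 forward-strand reads in all, at least 620 of the 841 forward-strand reads of DDIT3 (73.7%) were shared with MARS1.

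MARS1 was at 216, 220 and 233 CPM in co-culture, against 203, 215 and 232 CPM in controls, or 0.04 ± 0.07 (SE) on the log2 scale, with an adjusted p of 0.738 in edgeR. Its groups overlapped. MBD6, the neighbour of DDIT3 on the other side, stood at 46.0 ± 1.55 CPM in co-culture, against 51.5 ± 4.99 CPM in controls (SD, n = 3 each; log2 fold change -0.17, edgeR adjusted p 0.235). Counting without regard to strand, which discards the shared reads, gave DDIT3 a log2 fold change of -0.89 (edgeR adjusted p 0.00135).

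**Figure D2:**
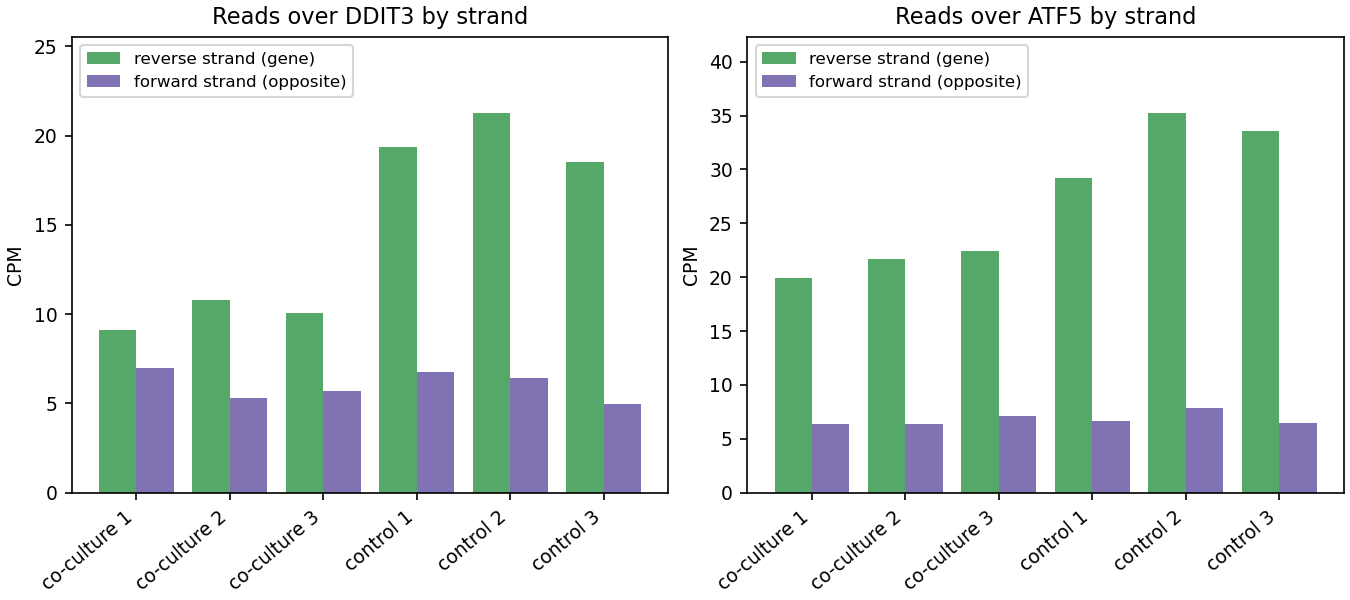
CPM (y axis, from 0) on the gene's own strand (reverse, green) and on the opposite strand (forward, purple) over DDIT3 and ATF5 in each of the 6 libraries. For DDIT3 the green bars stand at 18.5 or more in the controls and at 10.8 or less in co-culture, and the purple bars lie between 4.95 and 7.01 in all 6 libraries.

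ATF5, a leucine zipper factor whose mRNA is under the same kind of translational control as ATF4, stood at 19.96, 21.7 and 22.4 CPM in co-culture libraries 1, 2 and 3. In controls 1, 2 and 3 it stood at 29.2, 35.3 and 33.6 CPM. All co-culture values were below all control values. The means were 21.4 ± 1.26 and 32.7 ± 3.15 CPM (SD, n = 3 each), or -0.61 on the log2 scale (95% interval -0.81 to -0.41, SE 0.09; edgeR adjusted p 0.00537). This call was lost with the strand-class batch term (-0.71, SE 0.14, edgeR adjusted p 0.110), when co-culture library 2 was left out (-0.62, adjusted p 0.0505 in edgeR), and when control 2 was (-0.55, adjusted p 0.0548 in edgeR). Over the 14 other settings the ATF5 value stayed between -0.71 and -0.50, with edgeR, limma or DESeq2 adjusted p-values from 4.92e-06 to 0.110.

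Like DDIT3, ATF5 had many reads on the opposite strand, 20.4% of its reads over all libraries. Their level was 6.63 ± 0.427 CPM in co-culture, against 6.99 ± 0.726 CPM in controls (SD, n = 3 each; exact two-sided permutation test p = 0.5). Those groups overlapped. No single gene matched the reads that ATF5 lost when strand was disregarded, so their source is not named. The other 8 genes had between 0.110% and 3.74% of their reads on the forward strand.

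ATF4, the central factor of the response, had 342, 377 and 399 CPM in co-culture, against 374, 335 and 353 CPM in controls. The groups overlapped, with co-culture library 1 close to the lowest control. Its log2 fold change was 0.08 ± 0.07 (SE; 95% interval -0.09 to 0.24, edgeR adjusted p 0.577), an interval that leaves out a change in either direction as large as that of ATF5. With the strand-class batch term the value was -0.05 (edgeR adjusted p 0.870).

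CEBPG, a C/EBP protein that pairs with ATF4, was the steadiest of the 10 genes. It stood at 223, 218 and 222 CPM in co-culture, against 227, 221 and 216 CPM in controls. The spread over all 6 libraries was 1.05-fold, and the log2 fold change was -0.0045 ± 0.06 (SE; 95% interval -0.13 to 0.12, edgeR adjusted p 0.971).

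CEBPB, a further C/EBP partner, was scarce, with 77 to 146 reads per library. It stood at 3.85, 3.90 and 4.08 CPM in co-culture, against 6.22, 5.63 and 4.10 CPM in controls. Control 3 lay just above the co-culture values, and the groups did not overlap. The same held for DDIT3 and ATF5, so 3 of the 10 genes were lower without overlap, as were 15% of all tested genes (29.3% in either direction). The log2 fold change was -0.42 ± 0.18 (SE; 95% interval -0.82 to -0.02) and did not pass (unadjusted p 0.0411, edgeR adjusted p 0.194).

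**Figure D3:**
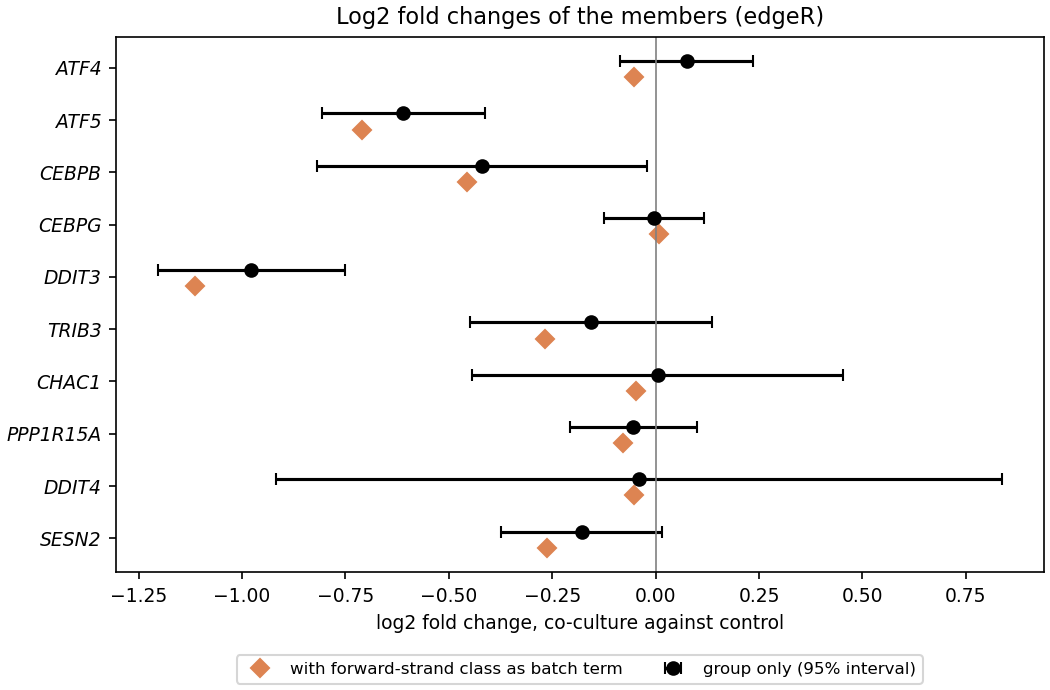
Log2 fold changes of the 10 genes, co-culture against control (x axis), with 95% intervals derived from the edgeR F statistic (black, n = 3 against 3). Point estimates with the forward-strand class as a batch term are in orange. DDIT3 at -0.98 and ATF5 at -0.61 lie farthest to the left, and the widest interval is that of DDIT4.

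Among the feedback and effector genes, none passed. TRIB3, a pseudokinase induced by ATF4 and DDIT3 that restrains ATF4, stood at 32.5, 35.1 and 37.5 CPM in co-culture, against 48.4, 36.4 and 32.8 CPM in controls. Only control 1 was clear of the co-culture range on the high side. The log2 fold change of TRIB3 was -0.16 ± 0.13 (SE; edgeR adjusted p 0.515). CHAC1, which breaks down glutathione and is a classical target of ATF4, was low, at 5.15, 5.08 and 5.73 CPM in co-culture, against 7.13, 5.01 and 3.95 CPM in controls. Its controls enclosed the co-culture values on both sides, and the log2 fold change was 0.0054 ± 0.20 (SE; 95% interval -0.44 to 0.45, edgeR adjusted p 0.990).

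PPP1R15A (GADD34), the phosphatase subunit that reverses eIF2 phosphorylation, stood at 58.8, 60.2 and 60.6 CPM in co-culture. In the controls it stood at 67.7, 60.6 and 58.3 CPM, so the groups overlapped. The log2 fold change was -0.05 ± 0.07 (SE; 95% interval -0.21 to 0.10, edgeR adjusted p 0.684).

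DDIT4 (REDD1) and SESN2 both restrain the growth kinase mTORC1. DDIT4 stood at 44.6, 50.6 and 40.1 CPM in co-culture, against 70.9, 39.0 and 29.5 CPM in controls. Control 1 was higher than every other library and the other 2 controls were lower than every co-culture library. The log2 fold change of DDIT4 was -0.04 with a wide 95% interval from -0.92 to 0.84 (SE 0.35, edgeR adjusted p 0.959), and without control 1 it was 0.40 (edgeR adjusted p 0.136). SESN2, a leucine sensor, stood at 45.4, 46.6 and 52.0 CPM in co-culture, against 61.3, 50.3 and 51.9 CPM in controls. Its groups overlapped through co-culture library 3, and the log2 fold change was -0.18 ± 0.09 (SE; edgeR adjusted p 0.252).

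Control 1 had the highest level of 7 of the 10 genes: CEBPB, CEBPG, TRIB3, CHAC1, PPP1R15A, DDIT4 and SESN2. Within the controls the highest value was 2.40 times the lowest for DDIT4, 1.80 for CHAC1 and 1.51 for CEBPB, against 1.15 for DDIT3. Within co-culture this ratio was at most 1.26 for any of the 10 genes, reached by DDIT4. Without control 1, TRIB3 stood at 0.03, CHAC1 at 0.27 and PPP1R15A at 0.01 on the log2 scale, none past the threshold in edgeR, while DDIT3 stood at -0.99 and ATF5 at -0.68 (edgeR adjusted p 4.74e-06 and 1.22e-05).

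The difference between DDIT3 and the rest was examined directly as the ratio of reads within a library, which no scaling can change. The log2 ratio of DDIT3 to ATF4 was -5.23, -5.13 and -5.31 in co-culture and -4.27, -3.98 and -4.25 in the controls, a difference of -1.06. These groups do not overlap. Against the other members, the difference between co-culture and control ran from -1.03 (DDIT4), -1.01 (CHAC1), -0.98 (CEBPG) and -0.93 (PPP1R15A) through -0.84 (TRIB3), -0.80 (SESN2) and -0.57 (CEBPB) to -0.37 (ATF5). In all 9 ratios the co-culture libraries lay below every control. Each exact two-sided permutation test gave p = 0.1, also after Benjamini-Hochberg adjustment over the 9 ratios, and 0.1 is the smallest value that 3 against 3 libraries can give. The 9 ratios share the DDIT3 counts, so they are not independent of each other.

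**Figure D4:**
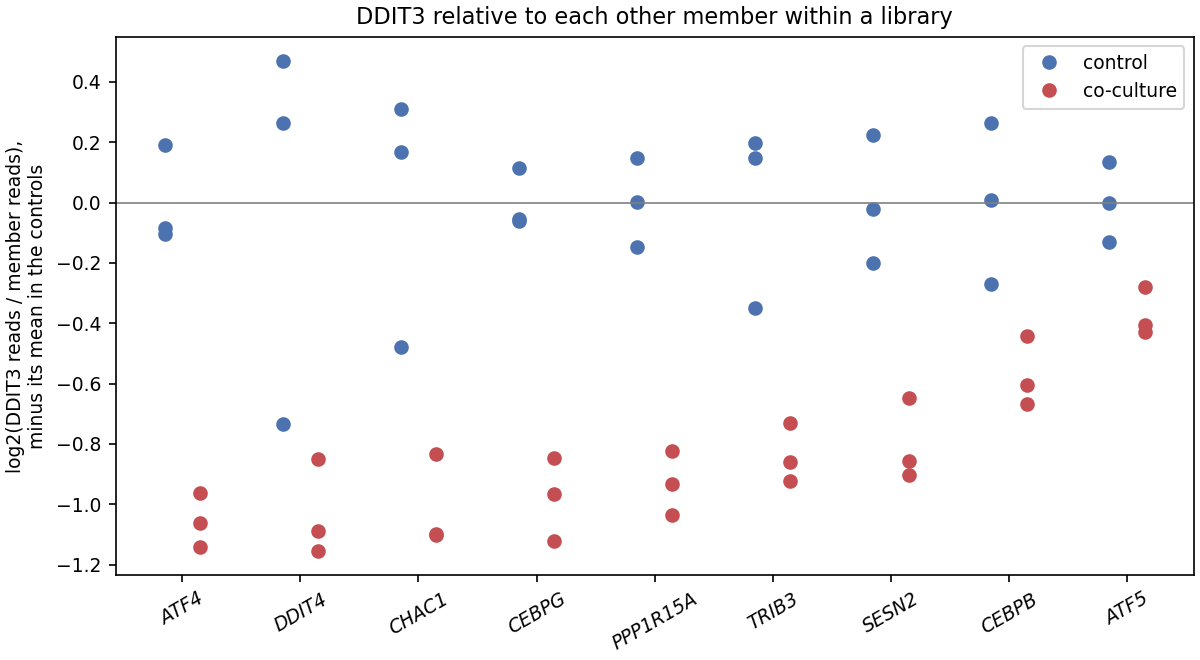
Log2 ratio of DDIT3 reads to the reads of each other member within a library, minus the mean of that ratio in the controls (y axis); blue points are the 3 controls and red points the 3 co-culture libraries. The red points lie below the blue ones for all 9 members, by 1.06 on average for ATF4 and by 0.37 for ATF5.

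Per kilobase of transcript, using the longest coding transcript of GENCODE release 29 because the annotation behind the counts is not given in the sources used here, the levels covered a wide range. ATF4 was highest at a mean of 179.9 CPM per kb over the 6 libraries, followed by CEBPG at 53.8. DDIT4 (26.2) and PPP1R15A (25.7) came next and overlapped in their library ranges. TRIB3 (14.85), SESN2 (14.85), DDIT3 (13.9) and ATF5 (13.05 CPM per kb) formed a run in which each gene's range overlapped that of the next. CHAC1 (2.89) and CEBPB (2.37 CPM per kb) were lowest and overlapped each other. DDIT3 ranged from 8.535 to 19.95 CPM per kb over the 6 libraries, so its place within that run differed between the groups.

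Genes with a pattern most like DDIT3 were sought among 11646 other genes averaging 5 CPM or more. The measure was the root mean square distance between log2 CPM profiles over the 6 libraries, each centred on its own mean. The nearest were GPNMB, a membrane glycoprotein (distance 0.0886), PCDH19, a protocadherin (0.120), FAM222A (0.146), SOX2, a transcription factor of stem and neural progenitor cells (0.162), and DHRS2, a dehydrogenase (0.167). ATF5 ranked 10 at a distance of 0.206. By choice, all of these are lower in co-culture: GPNMB stood at 4.803, 5.23 and 5.36 CPM in co-culture against 11.5, 11.4 and 10.4 CPM in the controls, and SOX2 at 13.2, 13.6 and 13.2 CPM against 20.8, 23.1 and 20.6 CPM. Of the other members above 5 CPM, SESN2 was nearest after ATF5, at rank 1693, and DDIT4 was farthest, at rank 10643.

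Upstream of ATF4, the 4 eIF2 kinases were all expressed and none passed the test. EIF2AK1 (HRI, which senses haem and relays mitochondrial stress) stood at 249 ± 5.84 CPM in co-culture, against 242 ± 3.02 CPM in controls (SD, n = 3 each; log2 fold change 0.04, edgeR adjusted p 0.699). EIF2AK3 (PERK, the ER stress kinase) had a log2 fold change of -0.02 (edgeR adjusted p 0.873). EIF2AK2 (PKR, activated by double-stranded RNA) stood at 94.1, 85.5 and 84.7 CPM in co-culture against 99.2, 111.6 and 101.2 CPM in controls (log2 fold change -0.24, edgeR adjusted p 0.0694). EIF2AK4 (GCN2, which senses uncharged tRNA) stood at 117.6, 116.2 and 117.8 CPM in co-culture against 105.6, 106.2 and 95.98 CPM in controls (log2 fold change 0.19, edgeR adjusted p 0.0862). The groups did not overlap for EIF2AK1 and EIF2AK4, where co-culture was higher, or for EIF2AK2, where it was lower. Groups without overlap were found for 29.3% of all tested genes. For EIF2AK1 the gap was narrow, between 244.9 CPM in control 3 and 245.2 CPM in co-culture library 2. Of the whole list of 22 kinases, eIF2 and eIF2B subunits and their regulators, edgeR called 0 in either direction, and the median log2 fold change was -0.03. At an unadjusted p under 0.05 the list had 5 of 22 genes, beside 23.2% of all genes. DESeq2 called 1 and limma-voom 0, where these tools called 7.08% and 4.43% of all genes. Without control 1 edgeR called 5 of the 22, beside 20.8% of all genes, so these counts are near the share over all genes. Its most abundant genes were EIF2S3, the gamma subunit of eIF2 (log2 fold change 0.14, edgeR adjusted p 0.197), and GCN1, the activator of GCN2 (0.02, edgeR adjusted p 0.904).

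Downstream, 1 of 43 tested ATF4 target genes was higher and 0 were lower, beside 2.66% and 2.17% of all genes. Their median was 0.02, and FGF21 was too low to be tested. The gene called was SLC7A5, a carrier of large neutral amino acids, at 58.8 CPM in co-culture, against 45.6 CPM in controls (0.37 ± 0.08 SE on the log2 scale, adjusted p 0.0310 in edgeR). With the strand-class batch term SLC7A5 stood at 0.30 (edgeR adjusted p 0.356) and 0 of the targets were called. Without control 1, edgeR called 11 of the targets, beside 20.8% of all genes in that fit. At an unadjusted p under 0.05 there were 14 targets (23.2% of all genes). DESeq2 called 4 and limma-voom 2, beside 7.08% and 4.43% of all genes. A list of 9 genes linked to DDIT3 held death receptor, BH3 and oxidase genes, and also BCL2, GADD45A and GADD45B. It had 2 higher, 0 lower and a median of 0.09, which pools genes of different kinds. Of all genes, 2.66% were higher and 2.17% lower. Its called genes were GADD45B, a stress-induced regulator of growth arrest, from 17.7 to 28.9 CPM (0.70 ± 0.10 SE on the log2 scale, adjusted p 0.00435 in edgeR), and ERO1A, listed as ERO1L, the ER thiol oxidase, from 96.9 to 117.3 CPM (0.28, SE 0.06, edgeR adjusted p 0.0314). Both calls were lost with the strand-class batch term, where GADD45B stood at 0.82 (edgeR adjusted p 0.0586) and ERO1A at 0.30 (edgeR adjusted p 0.279). Without control 1, edgeR called 6 of the 9, beside 20.8% of all genes.

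In the ER chaperone and unfolded protein response list, edgeR called 0 of 19 genes and the median was -0.06. At an unadjusted p under 0.05 it had 2 genes, and DESeq2 and limma-voom called 0. Of all genes, 23.2% had an unadjusted p under 0.05, and edgeR called 4.83%, DESeq2 7.08% and limma-voom 4.43%. Those shares apply to the lists that follow in this paragraph as well. Its most abundant genes were HSP90B1, an ER chaperone (log2 fold change 0.12, edgeR adjusted p 0.346), and CALR, the calcium-binding chaperone calreticulin (-0.04, edgeR adjusted p 0.813). For the other C/EBP, ATF and CREB3 factors edgeR called 0 of 21 tested genes (CEBPE had 0 reads), with a median of -0.02. At an unadjusted p under 0.05 they had 7 genes, DESeq2 called 3 and limma-voom 1. The most abundant were CREBZF (0.20, edgeR adjusted p 0.177) and ATF6B (0.21, edgeR adjusted p 0.0575). The mTORC1 regulators had 0 of 23 called by edgeR, 0 by DESeq2 and 0 by limma-voom, 6 at an unadjusted p under 0.05 and a median of -0.0011. MTOR, the kinase itself, was the most abundant (0.04, edgeR adjusted p 0.783), followed by SESN3 (-0.11, edgeR adjusted p 0.252). Without control 1, edgeR called 2 of the 19 ER genes, 6 of the 21 other factors and 6 of the 23 mTORC1 regulators, beside 20.8% of all genes in that fit.

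Among 9 tested paralogs of the members, 1 was higher, beside 2.66% of all genes. It was TRIB1, a pseudokinase related to TRIB3, from 14.6 to 24.4 CPM (0.74 ± 0.09 SE on the log2 scale, adjusted p 0.00171 in edgeR). With the strand-class batch term TRIB1 stood at 0.82 (edgeR adjusted p 0.0416).

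Of the genes known to respond to handling and sorting, 6 of 14 were higher and 0 lower, beside 2.66% higher among all genes. This list, too, was chosen with earlier results of these data known. Its median was 0.30, and its summed level was 1621 to 1634 CPM in co-culture against 1298 to 1454 CPM in the controls. The 4 largest of those called were FOSB (log2 fold change 1.32), IER3 (0.88), HSPA1A (0.78) and ZFP36 (0.65), with edgeR adjusted p-values of 0.0154, 0.00210, 0.000581 and 0.0214. HSPA1A has a near-identical copy, HSPA1B, which is another of the 6 called (0.48, edgeR adjusted p 0.0126). The division of reads between them is uncertain, so they may not be separate results. The other 8 did not pass, and 5 of the 14 had a log2 fold change below 0, among them the early response genes JUN (-0.21), IER2 (-0.24) and FOS (-0.23), named here after their values were seen. With the strand-class batch term 3 of the 14 were called, HSPA1A, IER3 and KLF6, beside 0.199% of all genes. FOSB (1.49, edgeR adjusted p 0.136), ZFP36 (0.67, edgeR adjusted p 0.234) and HSPA1B (0.43, edgeR adjusted p 0.242) were not called. Both groups were sorted, and whether the rise of the 6 called genes came from handling or from the co-culture was not tested. They rose in the comparison in which DDIT3 and ATF5 fell, and their part in that result was not tested.

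**Figure D5:**
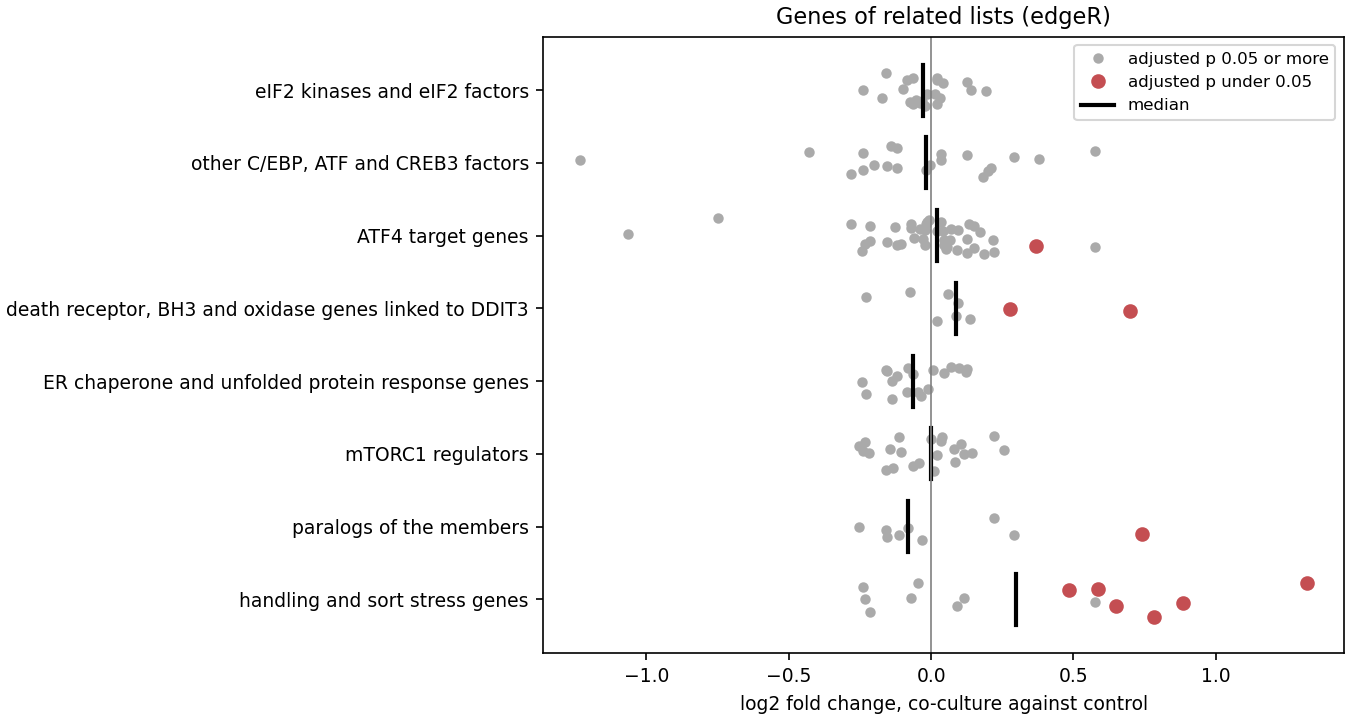
Log2 fold change, co-culture against control (x axis), of each tested gene in 8 lists of related genes; red points have an edgeR adjusted p under 0.05, grey points do not, and black bars are list medians. Red points lie to the right of 0 throughout, with 6 of 14 in the handling and sort list. The eIF2, ER and mTORC1 lists and that of other C/EBP, ATF and CREB3 factors hold none.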

How the data were processed

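The files hold read counts per gene for 6 RNA libraries, deposited by the authors as raw whole numbers in 3 columns (strand disregarded, forward, reverse) and not normalized. Per the submitters' processing notes, FastQC, STAR 2.53a and the build hg18 were used. The annotation is not given in the sources used here. Reverse-strand counts were the main values, since nearly all reads fell there. Lines that name no gene were left out (multimapped reads made up 6.48% to 8.42% per library).

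Counts were fitted in edgeR 4.0.16 (R 4.3.3; TMM scaling, at least 10 reads by its expression filter, robust quasi-likelihood F test, groups only), with Benjamini-Hochberg adjustment over 14582 genes at 0.05. One read was worth 0.0279 to 0.0522 CPM. DESeq2 1.42.0, limma 3.58.1 (voom), other scalings, no filter, other strand columns, a replicate block, a strand class term (median forward share under 1%) and leaving out each library were alternatives. Tested on simulated data, the fit called 198 of 200 genes changed 2-fold. Of its calls, 9.59% were unchanged genes, a share above the 0.05 aimed for. The simulation used the fit's own estimates of spread, changed none of the scarcest genes and had no strand classes. It therefore does not show how the fit handles libraries that stand apart. No 2 libraries of a group were alike within sampling noise (chi-square per degree of freedom 4.73 or more).

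The members and lists were chosen with earlier results of these data known. Named in the text are all members, the eIF2 kinases, up to 4 called genes of largest change per list (otherwise its 2 most abundant), the neighbours of DDIT3 and the 5 genes nearest to it in pattern. Of 148 list genes found in the files, 16 stood under an older symbol. Motifs were searched in RefSeq promoter windows of GRCh38.p14.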

Additional observations from a re-analysis of the deposited data

How the results depend on the processing

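DDIT3 kept its direction and call in 14 of 15 alternatives; the exception put forward-strand reads in place of reverse-strand reads (-0.0086, edgeR adjusted p 0.983). The count of members called was 1 in place of 2 when strand class entered as batch term, without co-culture library 2 and without control 2 (leaving out 1 library gave 1 to 2), ATF5 being the gene lost. Over all genes, 29 were called with the batch term, where 1 co-culture library carries the comparison. Between 65 and 3069 were called when 1 library was left out. These counts were 123, 74 and 321 without co-culture 1, 2 and 3, and 3069, 65 and 735 without controls 1, 2 and 3. The cause of this range was not tested. The count was 882 with library totals, 1032 with DESeq2 and 864 without a filter. The other 8 members passed in none of the 14 alternatives run for each. All 9 ratios kept their sign and separation when strand was disregarded and when 0.5 reads were added to each count. Leaving out 1 library cannot undo a separation that holds over all libraries, so those settings do not test the ratios.

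The replicate numbers of the labels did not pair the libraries: deviations of same-numbered libraries correlated at -0.06, -0.13 and -0.14, and no library went best with its own number. With the replicate number as a block, 164 genes were called, 160 of them among the 704, and both DDIT3 (-0.98, edgeR adjusted p 0.00795) and ATF5 (-0.61, edgeR adjusted p 0.0174) passed. Depth limits CEBPB and CHAC1 most, with 77 to 205 reads per library.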
